A study of Dugesia japonica with 18 samples.

Results

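Of the 25566 gene models counted in whole Dugesia japonica planarians, 211 (0.825%) had a moderate loss of RNA at day 7 after X-irradiation. On the log2 scale, the larger part of the loss came after day 1. These 211 gene models, the members, were chosen by their measured levels. Level means CPM (counts of a gene model scaled to a common library total of all gene models), averaged over the 3 libraries of a day. L is the log2 ratio of a day's mean CPM to the day 0 mean, with 0.5 CPM added to each. A member had at least 20 CPM at day 0 and an L at day 7 above -2 and no higher than -1, which is a loss of between 2-fold and 4-fold. At days 0.5 and 1 it had reached less than 50% of its day 7 L. The members make up 4.25% of the 4963 gene models with at least 20 CPM at day 0.

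The animals were of SSP, a single clonal line, about 5 mm long, starved, and fed chicken liver before that. The labels give a dose of 150 Roentgens of X-rays for all libraries, including day 0, whereas the design text of the series calls day 0 unirradiated, which is followed here. That text lists days 1, 3, 5 and 7, and day 0.5 is named in the sample labels alone. Each contrast with day 0 rests on this reading. Each day has 3 libraries, described as biological replicates, made from RNA of whole bodies by sequencing the 3' ends of messenger RNA. How many animals went into a library is not stated in the labels. No unirradiated animals were sampled after day 0, so effects of irradiation and of elapsed time cannot be told apart. In RNA of whole animals, fewer cells of a type and less RNA per cell cannot be told apart either.

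Planarians renew all their tissues from neoblasts, dividing stem cells spread through the body that X-rays remove. Neoblast daughters stop dividing and mature step by step into epidermis, gut, muscle, nerve and other cells, so animals without neoblasts lose first the stem cells and then the maturing cells that are no longer replaced. In the related species Schmidtea mediterranea, messenger RNAs of neoblasts disappear soon after irradiation and those of maturing epidermal cells later. The files do not pair the gene model IDs with gene names, so none of the 211 members can be linked here to a cell type or function, and no marker list could be matched.

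Library totals ranged from 4679195 to 12605652 counts and were lowest at day 7. All 211 members passed the filter on low counts, and the lowest count of any member in a library was 13. The median coefficient of variation over the 3 libraries of a day was between 5.36% (day 1) and 12.1% (day 7) among the members. Among all gene models at 20 CPM or more it was 6.3% and 10.5% on the same days. No 2 libraries of a day agreed within sampling noise, since the chi-square of their counts was at least 2.89 times its degrees of freedom.

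Together the members held 7.56%, 6.96% and 7.23% of the reads in the 3 day 0 libraries. At day 0.5 they held 6.76%, 5.68% and 6.06%, and at day 1 they held 5.84%, 5.73% and 5.8%. At day 3 the shares were 4.74%, 4.57% and 4.14%. The values of these days stand in order, except that day 0.5 replicate 2 was below all day 1 libraries. At day 5 the members held 3.71%, 3.74% and 3.79% of the reads, and at day 7 they held 3.11%, 3.33% and 2.73%. All day 5 libraries were thus below all day 3 libraries and above all day 7 libraries. The largest spread between replicates was at day 0.5, with a mean of 6.16 ± 0.55% (SD, n = 3), where replicate 1 was the highest. The shares at days 0, 0.5, 1 and 7 entered the choice of members, and those at days 3 and 5 did not.

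**Figure D1:**
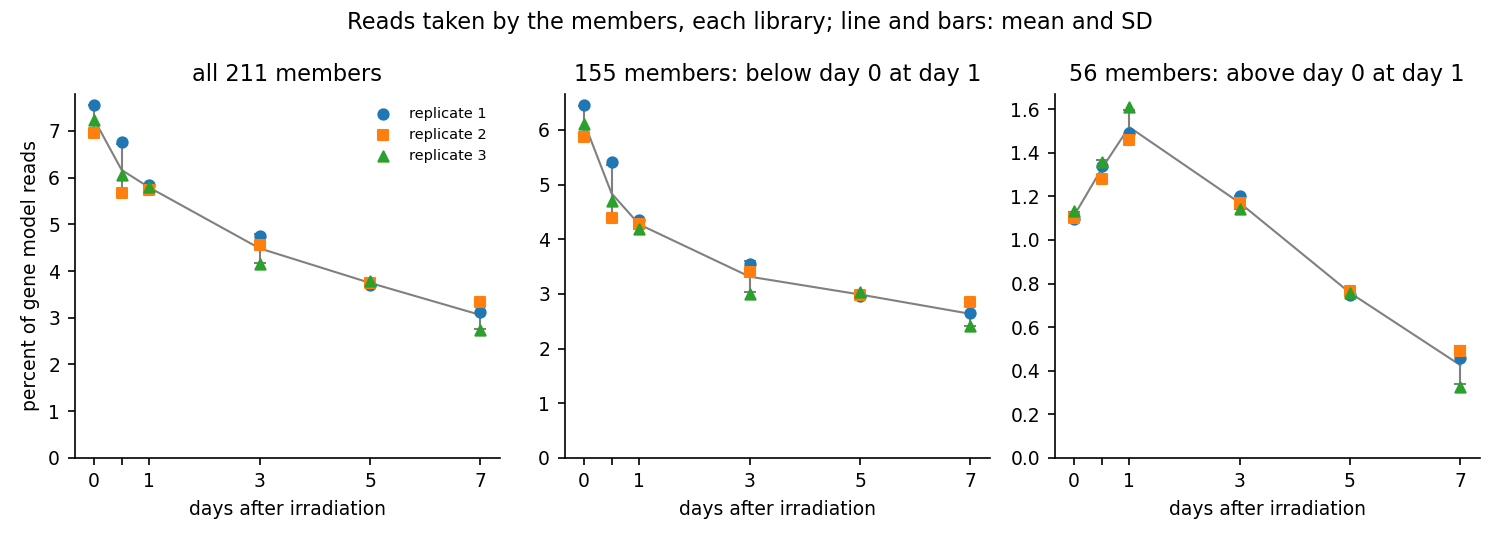
Percent of gene model reads taken by the members (vertical axis) against days after irradiation (horizontal axis, day 0 not irradiated), for all 211 members, for the 155 below their day 0 level at day 1 and for the 56 above it. Points are single libraries, with the line and bars giving the mean and SD of 3. The total is lower at each successive day, whereas the share of the 56 members is highest at day 1, at 1.52%, and lowest at day 7, at 0.425%.

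At days 0.5, 1, 3, 5 and 7 the median L of the members was -0.25, -0.43, -0.81, -1 and -1.24, respectively. Over all gene models with at least 20 CPM the medians stayed between 0.03 and 0.1 at the same times. The words "after day 1" therefore describe the larger part of the loss on the log2 scale and not its start. In CPM the larger part could come by day 1. DjGI001316-001, for example, had means of 2040, 1280 and 791 CPM at days 0, 1 and 7. At day 1 the members had reached a median of 32.9% of their day 7 L, and 89 of the 211 had reached between 40% and 50% at day 0.5 or day 1, just under the limit of the rule. The member nearest to that limit stood at 49.9%, and the nearest gene model left out stood at 50.2%. At the other limits, the values just inside and outside were -1.01 and -0.997 for L at day 7, -1.99 and -2.01 for its lower limit, and 20 and 19.8 CPM for the level at day 0.

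In edgeR's quasi-likelihood test over all 17129 gene models that passed the filter (adjusted p below 0.05), all 211 members were lower at day 7 than at day 0, against 37.4% of the gene models at 20 CPM or more. At day 1, 130 members were lower than at day 0, against 19.9%, and 19 were higher, against 16.9%. The rule used both contrasts, so nothing is read from these counts.

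The members were parted into 2 groups by their level at day 1. Values of L at day 1 lay close to 0 on both sides of this cut, at -0.023 and 0.018. Whether the groups are separate courses was not tested. In 155 members the mean at day 1 was below day 0, and in 56 it was above. Among the 155, the median L was -0.36, -0.5, -0.88, -1.03 and -1.21 at days 0.5, 1, 3, 5 and 7, so most of the decline came by day 3. By then 142 of the 155 were past 50% of their day 7 L, and another 12 passed it between days 3 and 5. On day 5, 2 of the 155 were short of it, 1 of which had been past it on day 3. Their share of the reads was 6.14 ± 0.302% before irradiation. On days 1, 3, 5 and 7 it was 4.27 ± 0.081%, 3.31 ± 0.281%, 2.99 ± 0.036% and 2.63 ± 0.219% (SD, n = 3 each).

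Among the 56 members above day 0 at day 1, the median L was 0.19, 0.34, 0.02, -0.56 and -1.38 at days 0.5, 1, 3, 5 and 7. At day 3, 29 of them still had a mean above day 0, and at day 5, 8 did. Only 5 of the 56 were past 50% of their day 7 L by day 3. A further 20 passed it by day 5, and 31 were still short of it then. Their share of the reads was 1.11 ± 0.019% before irradiation. On days 1, 3, 5 and 7 it was 1.52 ± 0.079%, 1.17 ± 0.03%, 0.757 ± 0.009% and 0.425 ± 0.087% (SD, n = 3 each). The day 7 libraries ranged from 0.326% to 0.49%.

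**Figure D2:**
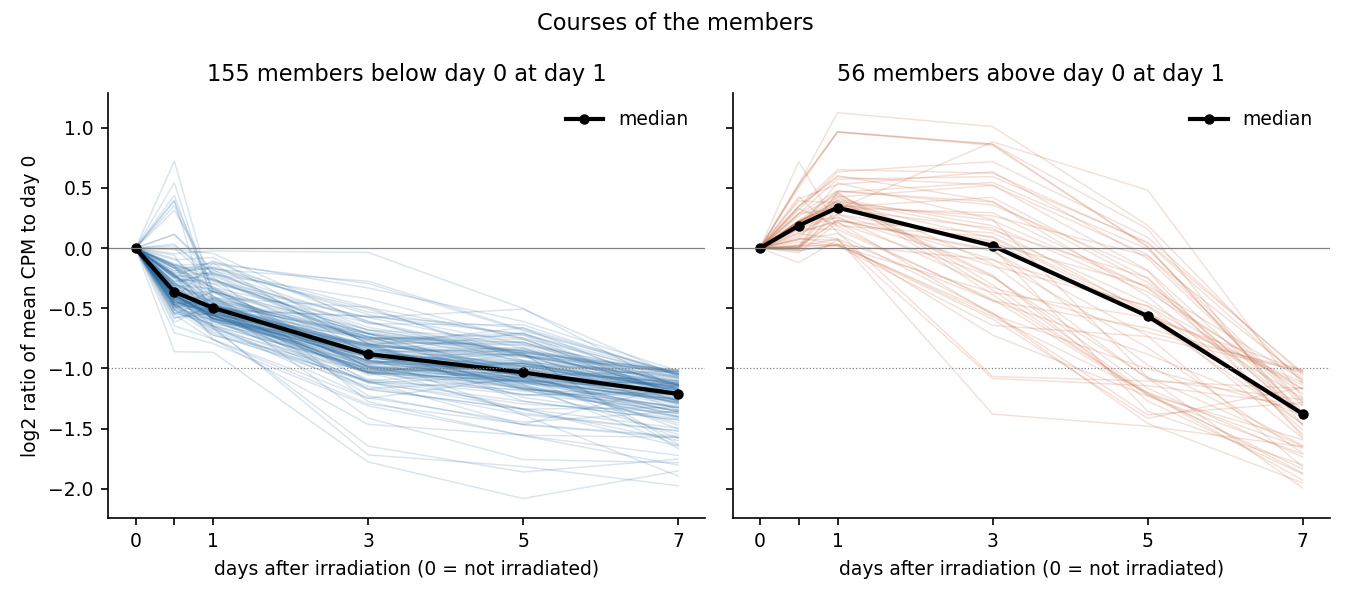
L, the log2 ratio of a day's mean CPM to day 0 (vertical axis), against days after irradiation (horizontal axis) for each of the 211 members (thin lines) with the median (black). Left, the 155 members below day 0 at day 1, whose median L is -0.88 at day 3. Right, the 56 members above it, whose median L is 0.02 at day 3 and -0.56 at day 5.

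A smaller number had a brief high. The mean was above day 0 at day 0.5 and below it at day 1 in 11 members. The highest day mean was at day 0 in 144 members, at day 1 in 39, at day 0.5 in 21 and at day 3 in 7. All of the 144 were below their day 0 mean at each of the 5 later times, and 99 members had a lower mean at each successive day.

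The comparison of day 5 with day 3 is the one whose libraries did not choose the members. It is still not independent of the rule, which placed the larger part of each member's day 7 L after day 1. The step from day 3 to day 5 lies within that time, so falls are favoured over rises by the choice itself. How far this accounts for the difference from all gene models was not tested, and the counts are given as descriptions. From day 3 to day 5, 45 of the 211 members fell (21.3%) and none rose, by edgeR's quasi-likelihood test at an adjusted p below 0.05 over all gene models. Of all 17129 gene models tested, 1.1% fell and 0.0992% rose. Of the 4963 at 20 CPM or more at day 0, 3.02% fell and 0.181% rose. The median fitted log2 change was -0.24 among the members, with a median SE of 0.12 for a single gene model, against -0.002 for all gene models tested and -0.03 for those at 20 CPM or more. The fitted change was below 0 in 200 of the 211, and in 2939 of the 4963 at 20 CPM or more. At an unadjusted p below 0.05, 109 members were lower and 0 higher, against 595 and 173 of the 4963. DESeq2 called 46 members lower and 0 higher, against 1.29% and 0.143% of the gene models it tested. Leaving out any one library gave between 30 and 58 falls, the lowest without day 3 replicate 2.

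The calls in this step lay mostly in 1 of the 2 groups parted at day 1. Of the 56 members above day 0 at day 1, 38 fell from day 3 to day 5 (67.9%). The median fitted log2 change of the 56 was -0.71, and all 56 had a fitted change below 0, from -1.48 to -0.1. Of the 155 members below day 0 at day 1, 7 fell (4.52%), which is near the 3.02% of all gene models at 20 CPM or more. Their median fitted log2 change was -0.21, and 144 of 155 had a value below 0, against 2939 of the 4963 gene models at 20 CPM or more. These 2 groups were parted after their values were seen, and the difference between them was not tested. Members above day 0 at day 1 had all of their day 7 loss still to come, whereas the 155 had part of it behind them. More falls among the 56 are thus favoured by the split itself. A 2-fold or larger fall in this step was called in 4 members, all of them among the 56. It was called in 61 of the 4963 gene models at 20 CPM or more, so nothing is read from the 4.

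**Figure D3:**
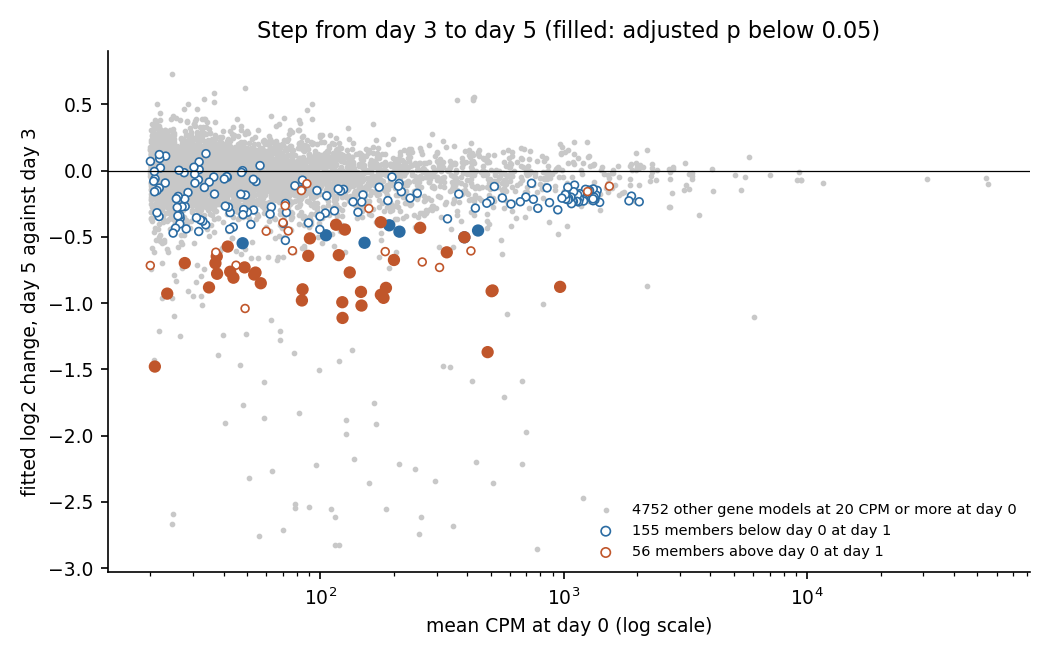
Fitted log2 change from day 3 to day 5 (vertical axis) against mean CPM at day 0 (horizontal axis, log scale). Each point is a gene model at 20 CPM or more at day 0, grey where it is no member, and filled members passed the test at an adjusted p below 0.05. The 56 members above day 0 at day 1 lie between -1.48 and -0.1, and the 155 others between -0.55 and 0.13.

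Groups of gene models with a deeper or an earlier loss, by the same measures as in the rule, are set beside the members for this step. Of the 87 gene models at 20 CPM or more whose L at day 7 was -2 or less and which had likewise reached under 50% of it by day 1, 68 fell from day 3 to day 5 (78.2%), with a median fitted log2 change of -1.48. Of the 227 gene models with the same loss at day 7 as the members but at least 50% of it reached by day 0.5 or day 1, 0 fell by edgeR, 32 were lower at an unadjusted p below 0.05, and the median fitted log2 change was -0.11. How much loss was left after day 1 differed between the groups by their definition, so the order of these values is not a finding. The members made up 23.8% of the 189 gene models called lower in this step, and the 87 gene models with the deeper loss gave 68 more of these.

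The steps on either side, in addition, share libraries with the rule and are likewise given as descriptions. From day 1 to day 3, 85 members were lower by edgeR, against 6.55% of the gene models at 20 CPM or more, with a median fitted log2 change of -0.37. By edgeR 0 members were higher, against 1.51%, and by DESeq2 also 0, against 166 gene models in all. At an unadjusted p below 0.05 by edgeR, 1 member was higher, against 586 of the 4963 gene models at 20 CPM or more. Of the 85, 66 belonged to the 155 members below day 0 at day 1 (42.6% of these) and 19 to the 56 above it (33.9%). The count of 85 moved with single libraries and with the scaling. It was 48 without day 3 replicate 3, 25 with scaling by the ERCC control RNAs and 130 when only the 6 libraries of these days were fitted. From day 5 to day 7, 50 members were lower, against 4.86% of the gene models at 20 CPM or more, with a median fitted log2 change of -0.25. In this step 0 members were higher, against 1.53%, and by DESeq2 also 0, against 202 gene models in all. At an unadjusted p below 0.05 by edgeR, 1 member was higher, against 402 of the 4963. Of the 50, 39 belonged to the 56 members above day 0 at day 1 (69.6% of these) and 11 to the 155 below it (7.1%). The count of 50 was 33 without day 7 replicate 3 and 31 when only the 6 libraries were fitted.

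Over the 3 steps after day 1, 127 members were called lower in at least 1. Of the gene models at 20 CPM or more, 6.55%, 3.02% and 4.86% were called lower in the single steps, in order of time. Combinations of steps were not counted outside the members, so nothing is read from those given here. The step from day 1 to day 3 alone was called in 63 members, that from day 3 to day 5 alone in 5 and that from day 5 to day 7 alone in 14. Both later steps, without the first, were called in 23 members, and all 3 steps in 8. No step was called in 84 members, for which the loss was only called against day 0. Against day 0, which chose the members, 170 were lower and 13 higher at day 3 (27.1% and 29.5% of the gene models at 20 CPM or more), and at day 5, 195 were lower and 0 higher (32.9% and 28.7%). All 13 of the members higher at day 3 were among the 56, of which 17 were lower at that time. At day 5, 0 members were higher at an unadjusted p below 0.05 by edgeR, against 1650 of the 4963 gene models at 20 CPM or more. By DESeq2 0 members were higher as well, for which the share of all gene models is not given here.

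The rule asked only for 20 CPM at day 0, and the members were spread unevenly above it. No transcript lengths are in the files, and orders by CPM are orders of 3' end reads, not of molecules. Of the 2667 gene models between 20 and 50 CPM at day 0, 76 (2.85%) were members. The share was 3.89% of the 1621 between 50 and 200 CPM, 5.75% of the 365 between 200 and 500 CPM and 9.8% of the 153 between 500 and 1000 CPM. Of the 157 gene models at 1000 CPM or more, 36 (22.9%) were members. Gene models with the same loss at day 7 but an earlier one numbered 117 of the 2667 and 17 of the 157. Over all gene models, the median L at day 7 was 0.02 between 20 and 50 CPM and -0.25 at 1000 CPM or more. A larger share at high abundance is thus not particular to the members. The 36 members carried 62.6% of the members' reads at day 0. Together they held 4.54 ± 0.254% of all reads before irradiation. On days 1, 3, 5 and 7 they held 3.2 ± 0.053%, 2.4 ± 0.223%, 2.19 ± 0.025% and 1.94 ± 0.185% (SD, n = 3 each).

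Most of the 36 members at 1000 CPM or more lay close together. At day 1, 34 of the 36 were below day 0. The other 2 were above it. Their IDs share a first number, so reads may be split between them and they are not independent of each other. Their fitted log2 changes from day 1 to day 3 were -1.14 and -1.45, against a median fitted log2 change of -0.34 for the 36. At day 3 the middle 50% of them had an L between -0.97 and -0.85, and at day 5 between -1.13 and -0.98. Their log2 ratio of mean CPM at day 5 to day 3 had a median of -0.15 and an SD over gene models of 0.039, whereas the SD was 0.244 over all 157 gene models of that abundance. The rule limited the change of the members and not that of the 157, so a smaller SD among members is favoured by the choice. In the fit all 36 had a change below 0 from day 3 to day 5, between -0.25 and -0.11 on the log2 scale, with a median SE of 0.107 for a single gene model. None of the 36 passed the test in this step by edgeR, although 11 were lower at an unadjusted p below 0.05. Of the 4963 gene models at 20 CPM or more, 595 were lower at that limit. The limit of 1000 CPM was set after seeing the values, and the agreement between gene models is not replication, since they were measured in the same libraries. In the other members, the SD of the ratio of day 5 to day 3 over gene models was between 0.291 and 0.301 in each of the 4 lower ranges of CPM. Those ranges hold all but 2 of the 56 members above day 0 at day 1. In the fit, the SD of this change was 0.284 over the 56 and 0.141 over the 155 members below day 0 at day 1.

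**Figure D4:**
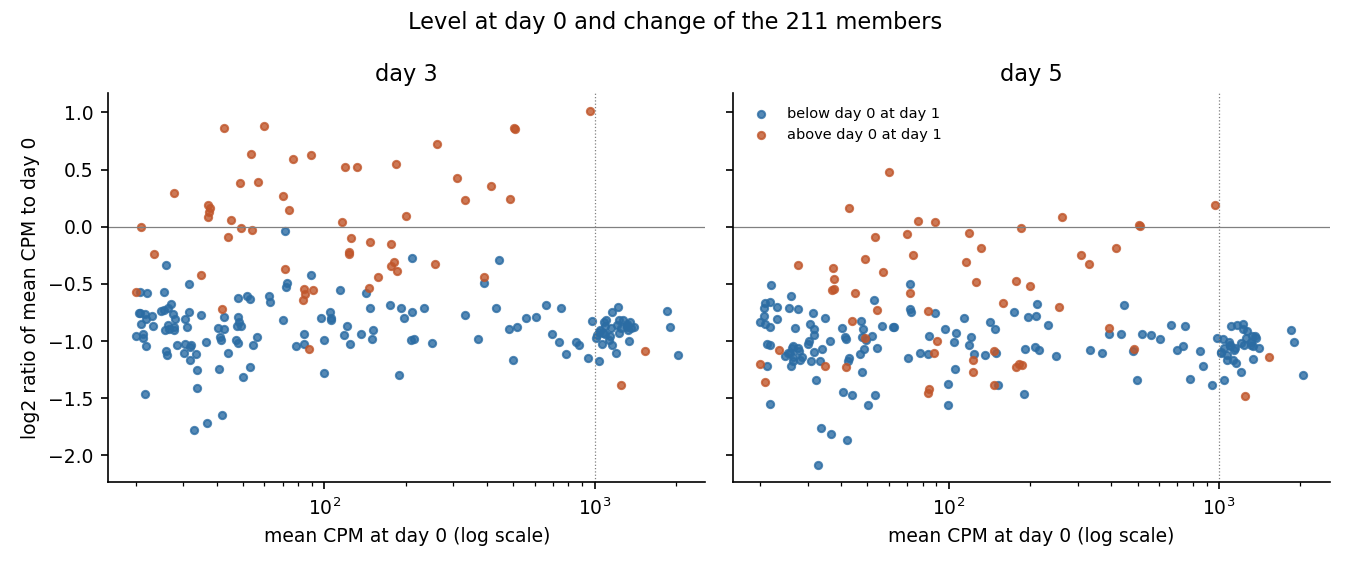
L (vertical axis) at day 3 (left) and day 5 (right) against the mean CPM at day 0 (horizontal axis, log scale) for the 211 members, coloured by whether the mean at day 1 was below or above day 0. Most of the 36 members right of the dotted line at 1000 CPM lie close together, with medians of -0.9 at day 3 and -1.04 at day 5. Members of lower abundance spread from -1.78 to 1.01 at day 3.

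The member with the most reads at day 0, DjGI001316-001, was among the 155 below day 0 at day 1. It had 2144, 1928 and 2049 CPM in the day 0 libraries, 1597, 1278 and 1412 CPM at day 0.5 and 1265, 1311 and 1266 CPM at day 1. It then had 1024, 949 and 843 CPM at day 3, 840, 796 and 857 CPM at day 5 and 794, 881 and 698 CPM at day 7. No library of days 0.5 to 7 reached the lowest day 0 library, and the libraries of days 3, 5 and 7 overlapped. Its fitted log2 change from day 3 to day 5 was -0.24 ± 0.11 (SE; edgeR adjusted p = 0.493) and from day 5 to day 7 it was -0.06 ± 0.11 (SE; edgeR adjusted p = 0.849). It had reached 49.2% of its day 7 L at day 1 and 81.9% at day 3.

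DjGI017537-001 had the largest rise of any member at day 1, a contrast that the rule used. Its levels were 998, 935 and 963 CPM at day 0 and 1577, 1168 and 1441 CPM at day 0.5. At day 1 it had 1995, 2093 and 2230 CPM, and at day 3 it had 2039, 1844 and 1952 CPM. At day 5 it had 1080, 1112 and 1113 CPM, all above the day 0 libraries, and at day 7 it had 542, 585 and 203 CPM. The fitted log2 change at day 5 against day 0 was 0.11 ± 0.21 and did not pass the test (SE; edgeR adjusted p = 0.731). The gene model was thus high at days 1 and 3, whose libraries overlapped, and lower afterwards, with day 7 replicate 3 far below the other two. From day 3 to day 5 it fell by 0.88 ± 0.21 on the log2 scale (SE; edgeR adjusted p = 0.0303), and no library of the 2 days overlapped. This call was lost with DESeq2 (adjusted p = 0.173), and without any one of the libraries of days 3 and 5 (edgeR adjusted p from 0.0675 to 0.138), while the value stayed between -0.91 and -0.82.

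DjGI018860-001 had the largest fall from day 3 to day 5 among members that passed the test with no overlap. It had 16.8, 27.1 and 18.7 CPM at day 0, 15.6, 29 and 28.5 CPM at day 0.5 and 33.4, 16.3 and 31.8 CPM at day 1. The libraries of these 3 days overlapped widely. At day 3 it had 18.1, 23.6 and 21 CPM, at day 5 it had 10.8, 9.29 and 3.51 CPM, and at day 7 it had 6.6, 2.78 and 7.52 CPM. All day 5 libraries were below all day 3 libraries. The fitted log2 change was -1.48 ± 0.31 (SE; edgeR adjusted p = 0.00665), and without day 5 replicate 3, the lowest, it was -1.1 (-1.105; edgeR adjusted p = 0.0901). The day 7 libraries held as few as 13 counts of it.

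DjGI000009-002 had the largest rise at day 0.5, again a contrast of the rule. It stood at 52.4, 51.6 and 55.4 CPM at day 0 and at 84, 84.7 and 95.4 CPM at day 0.5. By day 1 it was down to 47.2, 37.6 and 35.4 CPM, below all day 0 libraries. It had 23.5, 21.6 and 22.1 CPM at day 3, 21.2, 15.7 and 19.8 CPM at day 5 and 18.9, 20.5 and 32.2 CPM at day 7. Its lowest mean was at day 5, where it had passed its day 7 L by the widest margin of any member, at 129%. From day 3 to day 5 the fitted log2 change was -0.3 ± 0.15 (SE; edgeR adjusted p = 0.548). The first number of its ID occurs in 3 IDs, among which reads of similar sequence may be split, and its level is uncertain for that reason.

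**Figure D5:**
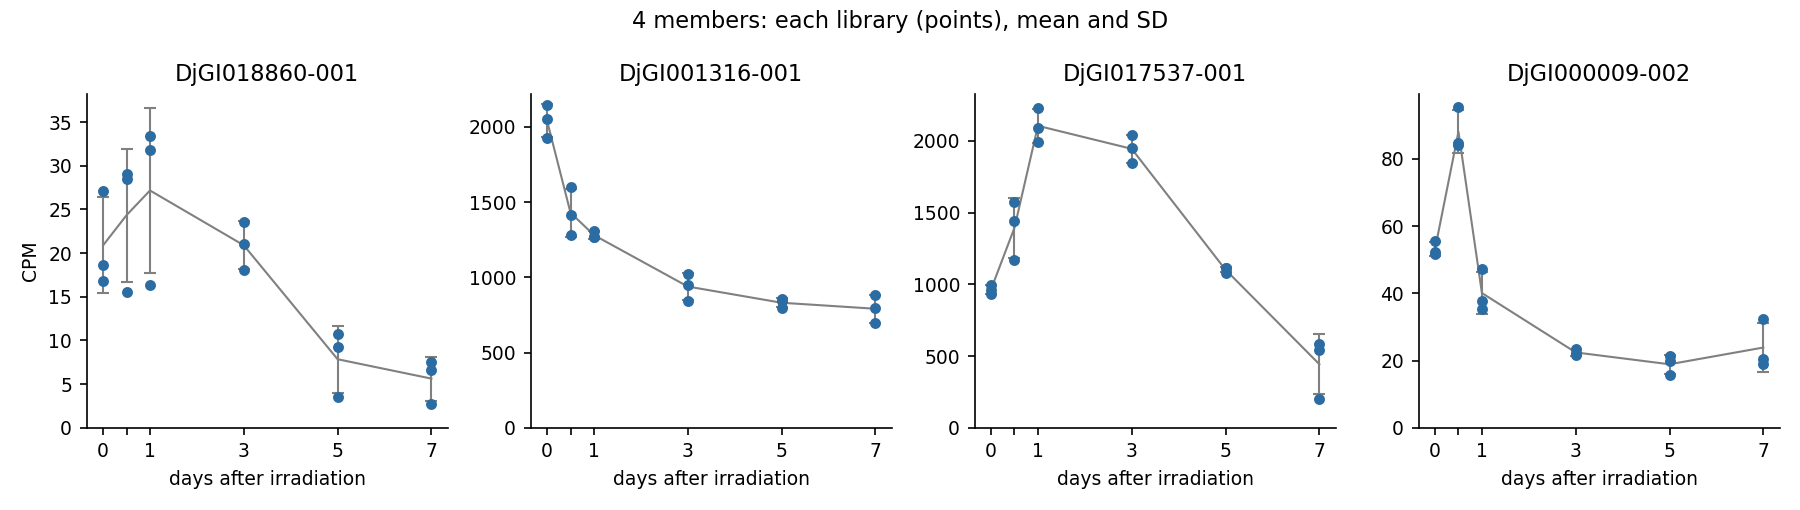
CPM (vertical axis, from 0) against days after irradiation (horizontal axis) for DjGI018860-001, DjGI001316-001, DjGI017537-001 and DjGI000009-002. Points are single libraries, and the line and bars give the mean and SD of 3. DjGI017537-001 is highest at day 1 with a mean of 2106 CPM, and DjGI000009-002 at day 0.5 with a mean of 88 CPM.

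Other members marked the ends of the range. The member with the latest loss, ranked 126 by its level at day 0, had 49.3, 74 and 56.3 CPM at day 0 and 97.9, 112 and 122 CPM at day 3. At day 5 it had 93.6, 58.6 and 99.3 CPM and at day 7 it had 12.8, 44.2 and 18 CPM. Its day 3 libraries were all above its day 0 libraries, and its day 7 libraries were all below them. From day 5 to day 7 its fitted log2 change was -1.78 ± 0.25 (SE; edgeR adjusted p = 3.87e-05), the largest of any member in that step, which shares its day 7 libraries with the rule. The lowest L at day 5 was that of the member ranked 168, at -2.08. Its levels were 34, 32.4 and 32.2 CPM at day 0, 10.9, 9.16 and 7.69 CPM at day 3, 7.79, 7.91 and 6.46 CPM at day 5 and 9.72, 7.69 and 8.83 CPM at day 7. It had been at 17.9, 19 and 16.7 CPM at day 0.5 and at 17.6, 16 and 19.8 CPM at day 1. This member was thus below all its day 0 libraries from day 0.5 on, and its libraries of days 5 and 7 overlapped.

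In 53 members (25.1%), the ID shares its first number with at least 1 other ID, compared with 27.1% of all gene models at 20 CPM or more. The 211 members carry 190 first numbers, and 36 members share theirs with another member, on 15 first numbers with at most 5 members each. The 30 pairs of members that share a first number differed in L at day 5 by a median of 0.06, against 0.3 for any 2 members. Reads may have been divided between such copies, so these members are not independent of each other. Another 40 IDs carry a first number of a member without being members. Of these, 25 had at least 20 CPM at day 0, and their mean at day 7 was below day 0 in 23 and at least 2-fold below it in 11.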

How the data were processed

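The values deposited by the authors are estimated counts (expected counts) for each gene model and library, without normalization. Per the submitters' processing notes, fastp 0.21.0, BWA 0.7.17-r1188 and Salmon were used. Not given in the sources used here are their roles, Salmon's version and the reference. A second deposited table gives total counts and sampling days per library, per the file headers. The days were the same as in the sample titles for all 18 libraries, which set the groups and replicate numbers. Neither library sizes nor tests include the 92 ERCC rows. Of the deposited counts, 38 were not whole and were rounded, none of them in a member.

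CPM used the library total of gene model rows. Gene models passed edgeR's filter by group (minimum count 10, minimum total 15). Counts were scaled by TMM (factors 0.936 to 1.13) and fitted with edgeR 4.0.16 (R 4.3.3; quasi-likelihood F-test) over all libraries with 1 mean per day. P-values are two-sided and adjusted by Benjamini-Hochberg over all gene models within each contrast. The SE is the size of the log2 change divided by the square root of F. Each p-value weighs a difference between day means against the spread between libraries of the same day. In the main fit that spread is estimated from all libraries. Alternatives were DESeq2 1.42.0, other scalings and filters, thinning to 4679195 counts, a replicate block, only the libraries compared, summing over first numbers and leaving out each library.

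The members, the tests and the lists were chosen with earlier results of these data known. The rule for printed IDs allowed 4: the largest fall from day 3 to day 5 and the highest day 0 level, and the largest rises at days 1 and 0.5, each rise and the fall past the test with no overlap of libraries. Members given by rank were chosen after their values were seen. Marker lists of neoblasts, epidermal progeny, intestine, muscle, neurons and other cells gave no result, since no ID could be matched.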

Additional observations from a re-analysis of the deposited data

Results flagged for a closer look

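Effects relative to day 0 at 2 sampling times differed by the test of day 5 against day 3 itself. This was so for 45 of the 211 members, all lower at day 5 (adjusted p below 0.05 by edgeR). Of the 4 printed IDs it held for DjGI018860-001, with a log2 change of -1.48, and for DjGI017537-001, with -0.88. Groups of 3 libraries are too small to single out an outlying library.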

How the results depend on the processing

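The count of members lower at day 5 than at day 3 stayed within 1.5 times its 45 under each alternative run, from 34 with ERCC scaling to 58 with only the 6 libraries compared, and from 30 to 58 with 1 library left out. Their median log2 change was between -0.32 and -0.18 throughout. The count from day 1 to day 3, 85, was 25 with ERCC scaling and 130 with only the 6 libraries compared, and 48 to 119 with 1 library left out. The count from day 5 to day 7, 50, was 31 with only the 6 libraries compared, and 33 to 53 with 1 library left out. The causes were not tested. The ERCC rows held only 190 to 487 counts per library. The counts against day 0 at days 3, 5 and 7 stayed within 1.5 times under all alternatives run.

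The rule itself gave 177 to 238 members with 1 library left out, of which 157 to 211 were among the 211. The lowest was without day 7 replicate 3. It gave 248 on TMM-scaled CPM (208 shared), 171 with a pseudocount of 5 CPM (160 shared) and 185 first numbers after summing (180 shared). Numbers of replicates gave no clear pairing of the libraries. Deviations from the day means correlated above 0.1 in 3 of 45 pairs with the same number and in 1 of 90 with different numbers. The median correlations were -0.001 and 0.005, respectively, and 10 of 18 libraries correlated best with their own number. With the replicate block, 47 members were lower at day 5 than at day 3.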
